A study of Vitis vinifera with 27 samples.

Results

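The alcohol dehydrogenase (ADH) and pyruvate decarboxylase (PDC) genes of the ethanol fermentation branch were followed here, 10 of the 28940 genes in the expression table, as given by a list of gene identifiers. They were selected on measured FPKM of these same libraries, and which of the differences below led to the choice is not recorded. Their levels, differences and counts are therefore a description, and no p-value is given for any of them. RNA was sequenced from deseeded berries of field-grown Cabernet Sauvignon vines in the 2012 season, in 27 libraries that fall into 9 groups of 3. Untreated control vines (C) were compared with vines whose basal leaves around the clusters were cut off at véraison, the onset of ripening (leaf removal, LR-V), and with vines whose same leaves were only tied aside (leaf moving, LM-V). Both treatments expose the clusters to sunlight, and leaf moving keeps the leaves on the vine. Each was sampled at mid-ripening (E-L 36), when the berries were not quite ripe (E-L 37) and when they were ripe (E-L 38), where E-L numbers are stages of the Eichhorn-Lorenz scale. The replicates A, B and C each pooled berries from 15 vines of 1 vineyard, so the spread given is that between such pools within 1 season.

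In ethanol fermentation, PDC splits carbon dioxide from pyruvate to give acetaldehyde, and ADH reduces acetaldehyde to ethanol while turning NADH back into NAD+. The regenerated NAD+ lets glycolysis continue where oxygen is short, and the genes are known in plants for their induction by low oxygen. In grape berries ADH transcripts and activity are known to accumulate with ripening, and the enzymes also interconvert the aldehydes and alcohols that contribute to aroma.

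The annotation in the table was compared with the label first. By KEGG orthology, 23 genes in the table are ADH (14 genes) or PDC (9 genes). Of the 14 ADH genes, 6 are called so only through a weak match to a single soybean entry. The 13 of the 23 genes outside the 10 were low, the highest with a mean of 12.6 FPKM (fragments per kilobase of transcript, scaled to the mapped fragments of a library) over the 27 libraries, and 5 of the 13 passed the filter on low values. That highest gene has the soybean match, and the highest with a grapevine entry, VIT_216s0039g00320, averaged 3.86 FPKM. Of the 10 genes, 7 match a grapevine enzyme entry with alignment scores from 713 to 1162. The other 3, VIT_219s0014g00320, VIT_218s0001g11380 and VIT_211s0016g05750, are called ADH only through that weak match to the soybean entry, with scores of 106, 69.3 and 98.2. They carry no term for ADH activity or for binding of zinc, the metal cofactor of this enzyme family, and 2 of them carry terms for DNA binding and protein dimerization instead. The annotation thus goes against the label for these 3 genes, and they are described apart, by their identifiers.

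The libraries were alike in depth. The value of 1 read, read from genes near the detection limit, put relative depth between 0.918 and 1.04 relative to 1 control library, and the number of reads itself is not given in the table. Pearson's r of log2(FPKM + 1) was 0.941 to 0.982 between libraries of a group. All 10 genes passed the filter (FPKM of 1 or more in at least 3 libraries), as did 19761 genes in all, and 9 of the 10 reached 1 FPKM in all 27 libraries. Transcripts of a 2S albumin-like and a vicilin-like seed storage gene were present in some libraries although the berries were deseeded, mostly in LR-V. The seed level, the mean log2(FPKM + 1) of both genes, was at most 1.73 in the 9 C libraries. In LR-V it reached 3.84 at E-L 36 (library A), 4.84 and 3.17 at E-L 37 (libraries B and C), and 4.01 and 3.27 at E-L 38 (libraries A and C). In LM-V 1 library, B of E-L 37, reached 3.29.

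PDC makes the acetaldehyde that ADH uses, and its 2 genes had similar levels. VIT_210s0003g00990 averaged 121.3 FPKM and VIT_208s0217g00100 averaged 87.5 FPKM over all libraries. In bulk tissue such levels cannot tell fewer cells of a type from less RNA per cell. VIT_208s0217g00100 stood above C at E-L 36 and below C at E-L 38 in both treatments. At E-L 36 it measured 90.8, 88.5 and 86.0 FPKM in C, 132, 130 and 122 FPKM in LR-V, and 105, 121.2 and 117 FPKM in LM-V. Every exposed library was above every C library, and LR-V was also above LM-V. At E-L 38 it measured 68.8, 80.8 and 68.4 FPKM in C, 59.2, 53.5 and 50.4 FPKM in LR-V, and 54.5, 52.8 and 62.1 FPKM in LM-V, so that both treatments lay below C and overlapped each other.

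On the scale used for all differences here, the difference of mean log2(FPKM + 1) with its standard error, VIT_208s0217g00100 in LR-V was 0.53 ± 0.09 above C at E-L 36, where C averaged 88.4 ± 2.41 FPKM (mean ± SD, n = 3), 0.02 ± 0.09 at E-L 37 and -0.41 ± 0.09 at E-L 38. In LM-V the differences from the same C libraries were 0.37 ± 0.09, -0.11 ± 0.09 and -0.36 ± 0.09. With an alternative setting or a library left out, the LR-V difference ranged from 0.50 to 0.56 at E-L 36 and from -0.47 to -0.33 at E-L 38. LR-V gave both the highest group mean, at E-L 36, and the lowest, 54.4 FPKM at E-L 38, a ratio of 2.35, and the C means of 88.4, 93.0 and 72.7 FPKM lay between. At E-L 37 the 3 groups overlapped.

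The other PDC gene, VIT_210s0003g00990, differed little between treatments. Its means at E-L 36, 37 and 38 were 138 ± 15.1, 131 ± 13.7 and 102 ± 3.96 FPKM in C, 136 ± 2.61, 127.6 ± 4.26 and 92.5 ± 4.21 FPKM in LR-V, and 138 ± 7.93, 129 ± 9.51 and 98.0 ± 4.59 FPKM in LM-V. The groups of a stage overlapped, except that all LR-V libraries at E-L 38 (88.2, 96.7 and 92.5 FPKM) lay below all C libraries (97.9, 106 and 103 FPKM), a difference of -0.14 ± 0.08. The E-L 38 libraries of each treatment were all below its E-L 37 libraries, with differences of -0.36 ± 0.08 for C, -0.46 ± 0.08 for LR-V and -0.39 ± 0.08 for LM-V. Over the 9 group means of log2(FPKM + 1), the pair of PDC genes had a Pearson's r of 0.916, a description of 9 points that share their libraries.

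**Figure D1:**
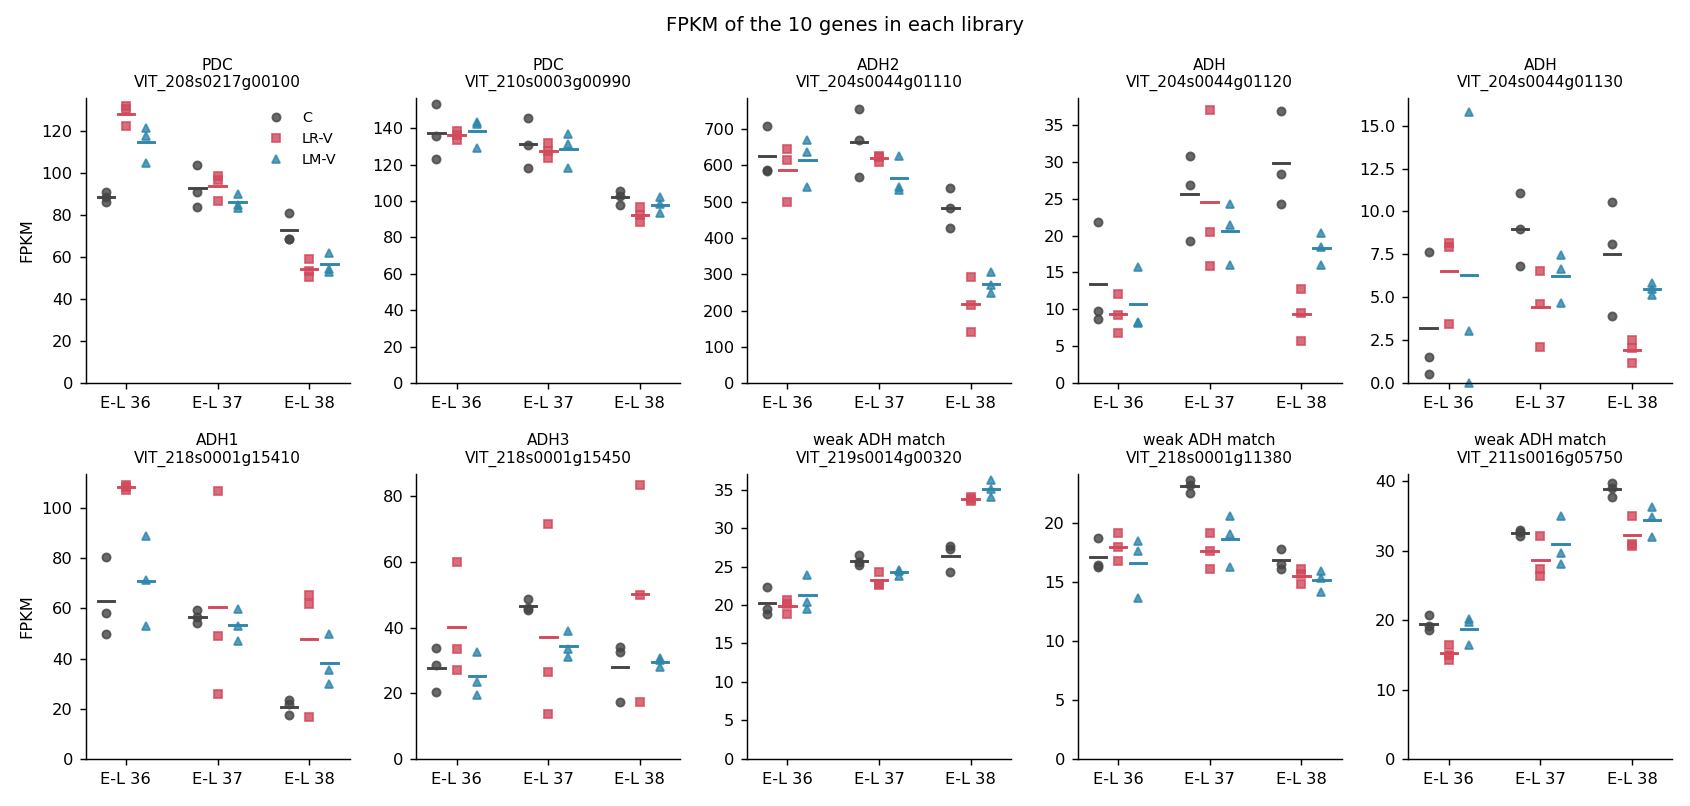
FPKM (vertical axes, from 0, a scale for each gene) of the 10 genes at E-L 36, 37 and 38. Points are single libraries of C (grey circles), LR-V (red squares) and LM-V (blue triangles), and bars are means of 3. VIT_208s0217g00100 lies above C at E-L 36 and below it at E-L 38 in both treatments, ADH2 lies at 142 to 306 FPKM in the exposed libraries of E-L 38 against 428 to 537 FPKM in C, and ADH1 and ADH3 scatter widely in LR-V at E-L 37 and 38.

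ADH, the last step to ethanol, was carried mainly by 1 gene. VIT_204s0044g01110, named ADH2 in RefSeq, averaged 517 FPKM over all libraries and ranked 78 of all genes in the table by mean FPKM. It made up 80.7% to 89.8% of the summed FPKM of the 5 ADH genes in C. At E-L 36 it measured 587, 586 and 708 FPKM in C, 613, 500 and 644 FPKM in LR-V, and 540, 670 and 637 FPKM in LM-V. At E-L 37 it measured 755, 671 and 568 FPKM in C, 623, 626.6 and 608 FPKM in LR-V, and 541, 625 and 533 FPKM in LM-V. The 3 groups overlapped at both stages.

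In ripe berries ADH2 was lower after both treatments. At E-L 38 it measured 483, 537 and 428 FPKM in C, 216, 293 and 142 FPKM in LR-V, and 248, 270 and 306 FPKM in LM-V. The highest exposed library, at 306 FPKM, lay below the lowest C library, and the treatments overlapped each other. The mean was 217 ± 75.4 FPKM in LR-V, a ratio of 0.449 to the 483 ± 54.7 FPKM of C, and 274 ± 29.3 FPKM in LM-V, a ratio of 0.569. The differences from C were -1.21 ± 0.17 for LR-V and -0.81 ± 0.17 for LM-V, which share the C libraries. LR-V replicate C, at 142 FPKM, was the lowest of the 27 libraries, and over all alternatives, each left-out library included, the LR-V difference ranged from -1.45 to -0.93 and the LM-V difference from -0.90 to -0.73. LR-V replicates A, B and C had 216, 293 and 142 FPKM of ADH2 at seed levels of 4.01, 0.99 and 3.27, so that the library with the lowest seed level had the highest ADH2. With the seed level as a covariate the LR-V difference was -1.23.

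The last stage step was described within each treatment, and its difference between treatments was not tested apart from the values above. From E-L 37 to E-L 38 the mean of ADH2 went from 665 to 483 FPKM in C (-0.46 ± 0.17), from 619 to 217 FPKM in LR-V (-1.57 ± 0.17) and from 566 to 274 FPKM in LM-V (-1.04 ± 0.17). In each treatment all libraries of E-L 38 were below all libraries of E-L 37. In the order of the 9 group means, neighbours overlapped except C at E-L 38 and LM-V at E-L 38, with 483 and 274 FPKM.

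Beside ADH2, 2 further ADH genes belong to the same chromosome 4 cluster, VIT_204s0044g01120 and VIT_204s0044g01130, and all 3 have the same closest protein in the annotation. RefSeq lists VIT_204s0044g01130 (LOC100255814) next to ADH2 with 0 genes between them. No RefSeq gene was matched to VIT_204s0044g01120, which the numbering of the identifiers places between them. Reads of 50 bp may be split among such similar copies, so the division of signal among them is uncertain. VIT_204s0044g01120 was far below ADH2, and at E-L 38 it measured 28.3, 36.9 and 24.3 FPKM in C, 12.8, 9.49 and 5.71 FPKM in LR-V, and 20.3, 16.1 and 18.4 FPKM in LM-V. The 3 groups did not overlap, in the order C, LM-V, LR-V, with differences from C of -1.62 ± 0.34 for LR-V and -0.67 ± 0.34 for LM-V. Its groups overlapped at the earlier stages, and its C mean went from 13.4 FPKM at E-L 36 to 25.6 and 29.8 FPKM at the later stages. Across the stages of C it therefore did not share the lower level of ADH2 at E-L 38.

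VIT_204s0044g01130 was the lowest of the 10 genes, at 0 to 15.8 FPKM, and was listed at 0 in LM-V replicate A at E-L 36. At E-L 38 it measured 10.5, 8.08 and 3.91 FPKM in C, 2.06, 2.54 and 1.20 FPKM in LR-V, and 5.50, 5.16 and 5.85 FPKM in LM-V. All LR-V libraries were below all C and all LM-V libraries, and the difference from C was -1.48 ± 0.69. Differences of genes this low are understated by the added 1 FPKM.

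**Figure D2:**
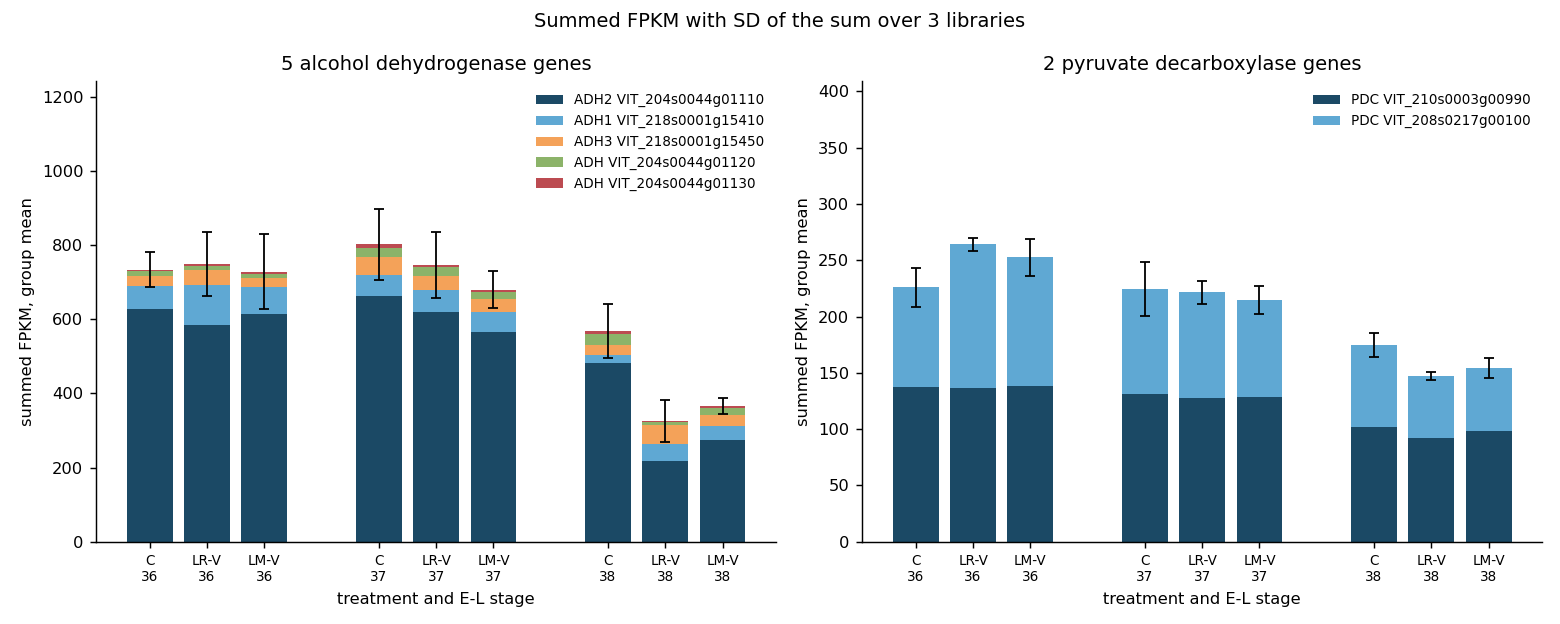
Summed FPKM (vertical axes, from 0) of the 5 ADH genes (left) and the 2 PDC genes (right) in the 9 groups, stacked by gene as group means, with the SD of the sum over 3 libraries as the error bar. ADH2 forms most of the ADH bar, and the ADH sums at E-L 38 are 326 FPKM in LR-V and 366 FPKM in LM-V against 569 FPKM in C.

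Summed over the 5 ADH genes, E-L 38 berries had 569 ± 73.8 FPKM in C, 326 ± 57.2 FPKM in LR-V and 366 ± 21.1 FPKM in LM-V (mean ± SD, n = 3). The sums of the treated libraries, 264 to 390 FPKM, lay below those of C, 491 to 638 FPKM. At E-L 36 the sums were 734, 750 and 729 FPKM in C, LR-V and LM-V, and at E-L 37 they were 802, 746 and 681 FPKM. The share of ADH2 in the sum went down to 53.8% in 1 LR-V library of E-L 38 and up to 86.4% in another. The 2 PDC genes together gave 226, 264 and 253 FPKM in C, LR-V and LM-V at E-L 36, and 175, 147 and 154 FPKM at E-L 38.

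ADH1 (VIT_218s0001g15410) and ADH3 (VIT_218s0001g15450) lie close together on chromosome 18, with 2 genes between them in RefSeq. ADH1 carries an annotation for response to hypoxia, and ADH3 one for S-(hydroxymethyl)glutathione dehydrogenase activity, the oxidation of formaldehyde bound to glutathione, beside ADH activity. ADH1 at E-L 36 measured 58.2, 80.5 and 49.9 FPKM in C, 108, 109 and 107 FPKM in LR-V, and 52.8, 88.7 and 71.2 FPKM in LM-V. The LR-V libraries were above all others of the stage and nearly equal, at seed levels of 3.84, 0.17 and 1.72, and the difference from C was 0.80 ± 0.42. At E-L 38 ADH1 measured 23.3, 21.7 and 17.6 FPKM in C, 61.7, 16.7 and 65.2 FPKM in LR-V, and 49.98, 35.5 and 29.7 FPKM in LM-V. All LM-V libraries were above C (38.4 ± 10.4 against 20.9 ± 2.94 FPKM, a difference of 0.83 ± 0.42), at seed levels of 0.97 to 1.20 against 0.74 to 1.10 in C, whereas LR-V replicate B lay below C.

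The LR-V values of ADH1 and ADH3 at the later stages moved with the seed transcripts. At E-L 37, LR-V replicates A, B and C had seed levels of 0.24, 4.84 and 3.17, with 25.9, 107 and 48.9 FPKM of ADH1 and 13.8, 71.5 and 26.4 FPKM of ADH3. At E-L 38 their seed levels were 4.01, 0.99 and 3.27, with 61.7, 16.7 and 65.2 FPKM of ADH1 and 83.4, 17.2 and 49.9 FPKM of ADH3. In both stages the library with the lowest seed level was the lowest for both genes and lay below all C libraries of its stage. At E-L 37 the C libraries measured 54.0 to 59.2 FPKM of ADH1 and 45.2 to 48.8 FPKM of ADH3. At E-L 38 the library was nearly level with the lowest C library, at 16.66 against 17.6 FPKM of ADH1 and 17.25 against 17.45 FPKM of ADH3. The LR-V difference of ADH3 from C at E-L 38 was 0.62 ± 0.48, and 0.06 with the seed level as a covariate. For ADH1 the corresponding values were 0.94 ± 0.42 and 0.49, and at E-L 36 they were 0.80 and 0.48. The covariate has the same slope in all 27 libraries, whatever their stage. ADH1 in LR-V at E-L 36 was 107 to 109 FPKM at seed levels from 0.17 to 3.84. The value of 0.48 therefore does not show a part of the seed transcripts at that stage. ADH3 in LM-V overlapped C at E-L 36 and 38 and lay below it at E-L 37 (34.5 ± 4.07 against 46.6 ± 1.91 FPKM).

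Over the 27 libraries, as deviations from the group means, Pearson's r with the seed level was 0.599 for ADH1 and 0.64 for ADH3, and -0.178 to 0.261 for the other 8 genes. This is a description in which the points share their libraries and a few LR-V libraries lie far out, and 842 and 640 of the tested genes had a higher r than ADH1 and ADH3. The part of the seed transcripts in the ADH1 and ADH3 values was not tested beyond these values.

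**Figure D3:**
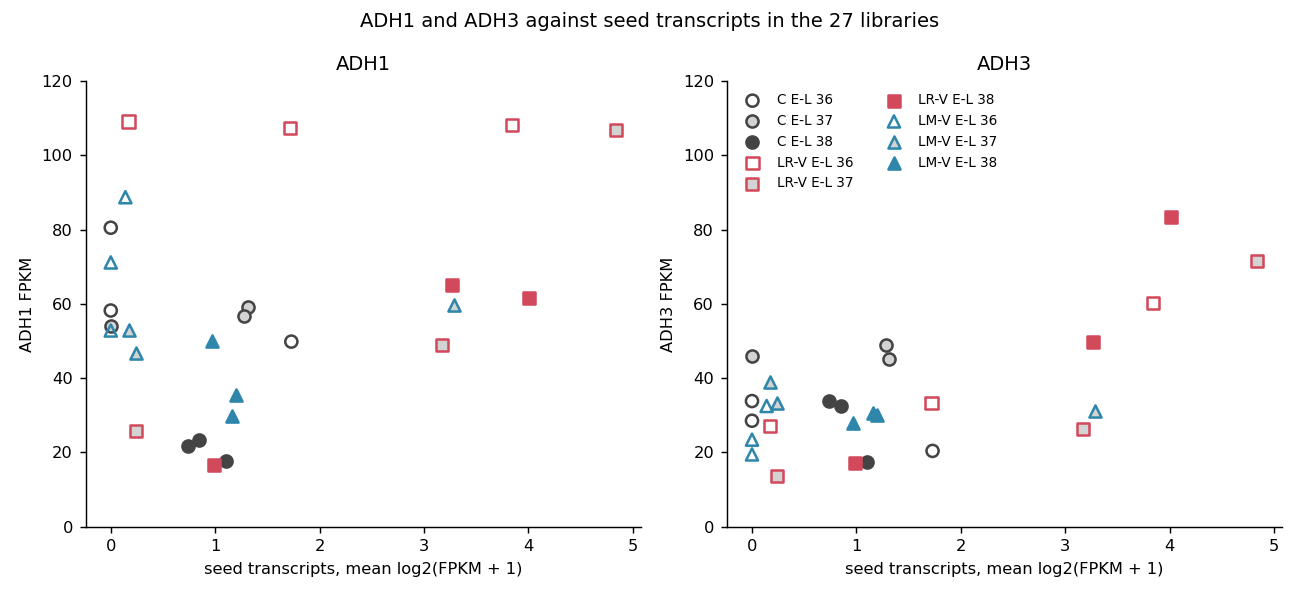
FPKM of ADH1 (left) and ADH3 (right) on the vertical axes against the seed level, the mean log2(FPKM + 1) of 2 seed storage genes, in the 27 libraries. Marker shape and colour give the treatment and the fill gives the stage (open E-L 36, pale E-L 37, filled E-L 38). LR-V libraries of E-L 37 and 38 spread along the seed level from 13.8 to 83.4 FPKM of ADH3, whereas ADH1 in LR-V at E-L 36 stays at 107 to 109 FPKM over seed levels from 0.17 to 3.84.

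The 3 genes with the weak soybean match were steady within groups. VIT_219s0014g00320 at E-L 38 measured 27.3, 27.6 and 24.2 FPKM in C, 33.7, 34.0 and 33.5 FPKM in LR-V, and 34.1, 35.1 and 36.2 FPKM in LM-V. Both treatments were above C, with differences of 0.35 ± 0.08 for LR-V and 0.40 ± 0.08 for LM-V, the reverse of ADH2 in the same libraries. At E-L 37 both treatments were slightly below C (-0.14 ± 0.08 and -0.08 ± 0.08). VIT_218s0001g11380 was 23.1 ± 0.58 FPKM in C at E-L 37 against 17.6 ± 1.54 FPKM in LR-V and 19.1, 16.2 and 20.6 FPKM in the LM-V libraries, with all treated libraries below C. VIT_211s0016g05750 was 15.2 ± 1.11 FPKM in LR-V against 19.5 ± 1.10 FPKM in C at E-L 36, and its C means of 19.5, 32.6 and 38.9 FPKM at E-L 36, 37 and 38 became higher with stage, whereas those of VIT_210s0003g00990 became lower. None of these 3 genes is counted in the ADH sums above.

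**Figure D4:**
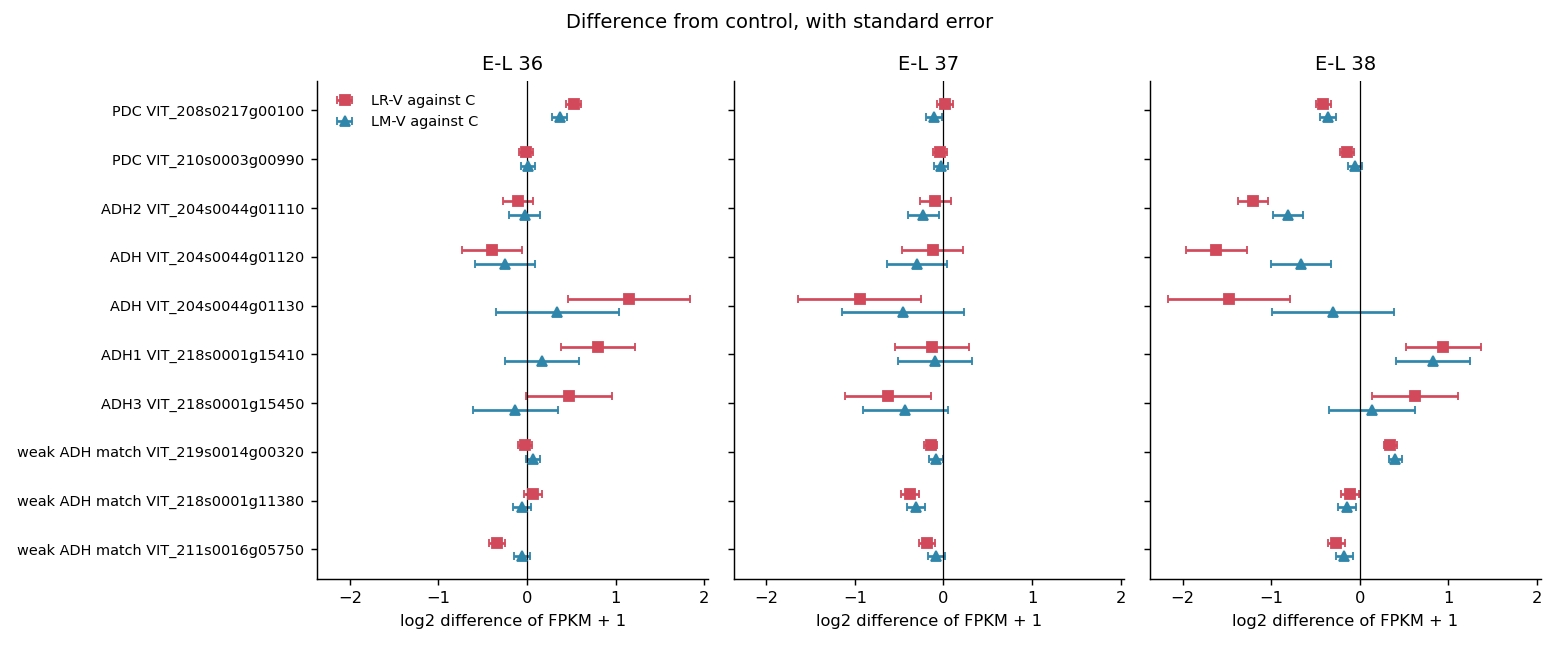
Difference from C in mean log2(FPKM + 1) (horizontal axes) of the 10 genes in LR-V (red squares) and LM-V (blue triangles) at E-L 36, 37 and 38, with standard errors from the fit over 27 libraries. At E-L 38 ADH2 lies at -1.21 and -0.81 and VIT_208s0217g00100 at -0.41 and -0.36, with PDC gene VIT_210s0003g00990 near 0 at each stage.

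Counted over the 10 genes, differences from C were most frequent at E-L 38. There LR-V libraries did not overlap C for 7 genes, 1 higher and 6 lower, where 33.2% of all tested genes did not overlap (17.2% higher and 16% lower), and LM-V libraries did not overlap C for 7 genes, 2 higher and 5 lower, where 29.9% did not (14.7% higher and 15.2% lower). By limma, with Benjamini-Hochberg adjusted p under 0.05 over 19761 genes, 4 of the 10 were called in LR-V, 1 higher and 3 lower, beside 17.8% of all tested genes (10.1% higher and 7.66% lower), and 3 in LM-V, 1 higher and 2 lower, beside 9.5% (4.6% and 4.9%). In LR-V, 2 were called at E-L 36, beside 5.54% of all genes, and 1 at E-L 37, beside 5.01%. In LM-V none was called at E-L 36 or E-L 37, beside 0.0708% and 0.572%. Between LR-V and LM-V none was called at E-L 36, 37 or 38, beside 0.0354%, 0% and 7.45%. As the genes were chosen with these results known, nothing is read from the counts. At E-L 38 the median difference from C over the 10 genes was -0.20 after leaf removal and -0.16 after leaf moving, against 0.02 and -0.02 over all genes. For the 7 genes with a grapevine enzyme entry alone, these medians were -0.41 and -0.30. At that stage limma found 3 of these 7 lower after leaf removal, 2 lower after leaf moving and none higher. After leaf removal it found 1 of the 7 higher at E-L 36 and none different at E-L 37. The remaining calls against C belonged to the 3 genes with the weak soybean match.

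The counts over the 10 genes at E-L 36 and 37 rested on single libraries. The LR-V count at E-L 36 was 1 instead of 2 without C replicate A, B or C or LR-V replicate B or C. That at E-L 37 was 0 instead of 1 without C replicate A, B or C or LR-V replicate A or C, and also after the libraries were scaled to a common median and in a fit of only the groups compared. Rubisco small subunit transcripts, taken as leaf or green tissue markers (3 genes), moved with the treatment too. Their sums at E-L 36 were 124 to 173 FPKM in C, 264 to 393 FPKM in LR-V and 180 to 253 FPKM in LM-V, which do not overlap and stand in the order of VIT_208s0217g00100 at that stage. At E-L 37 they were 95.4 to 141 FPKM in C, 156 to 178 FPKM in LR-V and 120.7 to 142 FPKM in LM-V. At E-L 38 they were 57.0 to 60.6 FPKM in C, 147 to 421 FPKM in LR-V and 102 to 127.7 FPKM in LM-V. There the sums of both treatments stood above C, whereas VIT_208s0217g00100 stood below C in both. A set of 5 colour and ripening markers, 1 of them at 0 in all libraries, summed to 631 to 690 FPKM in C, 341 to 420 FPKM in LR-V and 399 to 477 FPKM in LM-V at E-L 38. At E-L 37 this sum was 772 to 1010 FPKM in C, 405 to 601 FPKM in LR-V and 685 to 817 FPKM in LM-V, and at E-L 36 the 3 groups overlapped, at 722 to 1023, 591 to 818 and 791 to 920 FPKM. The part of these markers in the differences of the 10 genes was not tested.

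During ripening of the control berries, 4 of the 10 genes were called higher and none lower from E-L 36 to E-L 37, beside 37.5% of all tested genes (27.6% higher and 9.95% lower), and from E-L 37 to E-L 38 none was called higher and 4 lower, beside 28.5% (10.9% higher and 17.6% lower). In the first step, 3 of the 4 genes called were those with the weak soybean match. The remaining gene, VIT_204s0044g01120, had overlapping groups, and the median difference of the 7 genes with a grapevine enzyme entry was 0.08. In the second step 3 of these 7 genes were called, all lower. The first step depends on scale. The median of all genes in it stood at 0.20 in FPKM as deposited and at 0.01 after scaling. In a fit of only the groups compared, 7 of the 10 genes were called in the second step. Scaled, 2 of the 10 genes were called in the first step, and the ADH2 difference was -0.16 in place of 0.08. From E-L 37 to E-L 38 ADH1 went from 56.6 ± 2.59 to 20.9 ± 2.94 FPKM in C, a difference of -1.41 ± 0.42, whereas in LM-V it was 53.2 ± 6.43 and 38.4 ± 10.4 FPKM.

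The pathway around these enzymes was described with a list of 185 other genes, of which those in each sub-list that passed the filter were tested. It holds glycolysis (61 of 76 passed), which supplies pyruvate, related dehydrogenases (24 of 48), other fates of pyruvate and acetaldehyde such as aldehyde and pyruvate dehydrogenase (27 of 35), and genes of the low-oxygen response (9 of 26), and 10 of the 185 genes were at 0 in all libraries. The list was also set with earlier results known. Of the 48 related dehydrogenases only 13 have ADH or PDC orthology (5 tested), 9 have that of the glutathione-dependent formaldehyde dehydrogenase (6 tested), and 26 entered through annotation words alone (13 tested), aldo-keto reductases among them. The words also caught prenylcysteine oxidases in the low-oxygen list. Such genes are not enzymes of fermentation or oxygen sensing, and they were kept.

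At E-L 38 the list moved both ways. In LR-V 41 genes were called, 20 higher and 21 lower (33.9% against 17.8% of all tested genes), with a median difference of 0.04 against 0.02. In LM-V 13 were called, 5 higher and 8 lower (10.7% against 9.5%). Glycolysis genes had 10 higher and 13 lower in LR-V and 3 higher and 5 lower in LM-V. The low-oxygen genes had 1 higher and 3 lower in LR-V, and 0 higher and 1 lower in LM-V. The related dehydrogenases had 5 higher and 1 lower of 24 in LR-V and none called in LM-V by limma, where 4 had an unadjusted p under 0.05. The gene called lower was the only one called of the 5 with ADH or PDC orthology, and the 5 called higher were 3 with formaldehyde dehydrogenase orthology and 2 from the annotation words. Of the 5 with ADH or PDC orthology, VIT_212s0142g00390, VIT_209s0002g07340 and VIT_202s0012g02440 have it only through the weak soybean match. The LR-V count of 41 was 25 without LR-V replicate C and 24 in a fit of only the groups compared.

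The named genes of the list at E-L 38 were lower together with ADH2 in some cases. A truncated hemoglobin gene, VIT_204s0008g04210, of a family that binds oxygen, measured 45.5, 44.2 and 41.4 FPKM in C, 13.2, 13.8 and 12.8 FPKM in LR-V, and 21.8, 14.9 and 19.1 FPKM in LM-V. It fell by 1.65 in LR-V (limma adjusted p = 3.57e-08) and fell by 1.21 in LM-V (adjusted p = 4.26e-06). The 6-phosphofructokinase gene VIT_204s0008g00520, an early committed step of glycolysis, fell by 1.16 in LR-V, from 74.6 ± 3.71 to 33.0 ± 4.87 FPKM (limma adjusted p = 1.47e-07), and was also lower in LR-V than in LM-V (-0.53, adjusted p = 0.00334, and 0.0963 in a fit of only the groups compared). The aldolase gene VIT_204s0023g03010, which splits fructose bisphosphate, rose by 1.37 in LR-V, from 10.5 ± 1.23 to 28.9 ± 4.22 FPKM (limma adjusted p = 7.78e-07), and by 0.95 in LM-V (adjusted p = 0.000113). VIT_215s0048g02580, the E1 alpha subunit of pyruvate dehydrogenase, which sends pyruvate to respiration, rose by 0.59 in LM-V, from 85.7 ± 0.936 to 129 ± 9.02 FPKM (limma adjusted p = 5.14e-05).

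Earlier stages gave smaller counts. In LR-V at E-L 36, 8 list genes were called, 6 higher and 2 lower (6.61% against 5.54% of all genes). VIT_211s0016g02850, another 6-phosphofructokinase gene, rose from 90.5 ± 2.36 to 126 ± 14.7 FPKM (limma adjusted p = 0.00129), the aldehyde dehydrogenase gene VIT_201s0026g00220, of an enzyme that oxidises acetaldehyde to acetate, rose from 52.9 ± 7.06 to 86.1 ± 13.6 FPKM (limma adjusted p = 0.00236), and the enolase gene VIT_216s0022g01770 fell from 751 ± 51.1 to 510 ± 100.6 FPKM (limma adjusted p = 0.00987). This count was 4 in a fit of only the groups compared, where the aldehyde dehydrogenase (adjusted p = 0.0517 by limma) and the enolase (0.0904) were no longer called. It was 5 without C replicate B or LR-V replicate A, 3 without LR-V replicate B and 2 without C replicate C. In LM-V at E-L 36 no list gene was called by limma, and 11 had an unadjusted p under 0.05.

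At E-L 37, 12 list genes were called in LR-V, 1 higher and 11 lower (9.92% against 5.01%). They included the aldehyde dehydrogenase gene VIT_204s0023g02810, which fell from 82.1 ± 7.94 to 44.5 ± 8.35 FPKM (limma adjusted p = 0.000602), the pyruvate kinase gene VIT_216s0050g02180, from 53.3 ± 1.39 to 41.2 ± 3.17 FPKM (limma adjusted p = 0.00239), and the glyceraldehyde-3-phosphate dehydrogenase gene VIT_219s0085g00600, from 75.3 ± 6.03 to 54.8 ± 3.85 FPKM (limma adjusted p = 0.00702). After scaling the split was 4 higher and 4 lower. The count was 2 in a fit of only the groups compared, where limma adjusted p was 0.0354, 0.0732 and 0.0599 for these 3 genes. It was 4 without LR-V replicate C, 5 without LR-V replicate A, and 5, 6 and 7 without the control libraries A, B and C. In LM-V 1 list gene was called, the sucrose synthase gene VIT_207s0005g00750, which cleaves sucrose for glycolysis, with 296 ± 17.95 against 382 ± 22.5 FPKM in C (limma adjusted p = 0.0464, and 0.194 in a fit of only the groups compared). This LM-V count was 0 without any 1 of the control libraries or of LM-V libraries A and B, and 2 without LM-V replicate C.

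**Figure D5:**
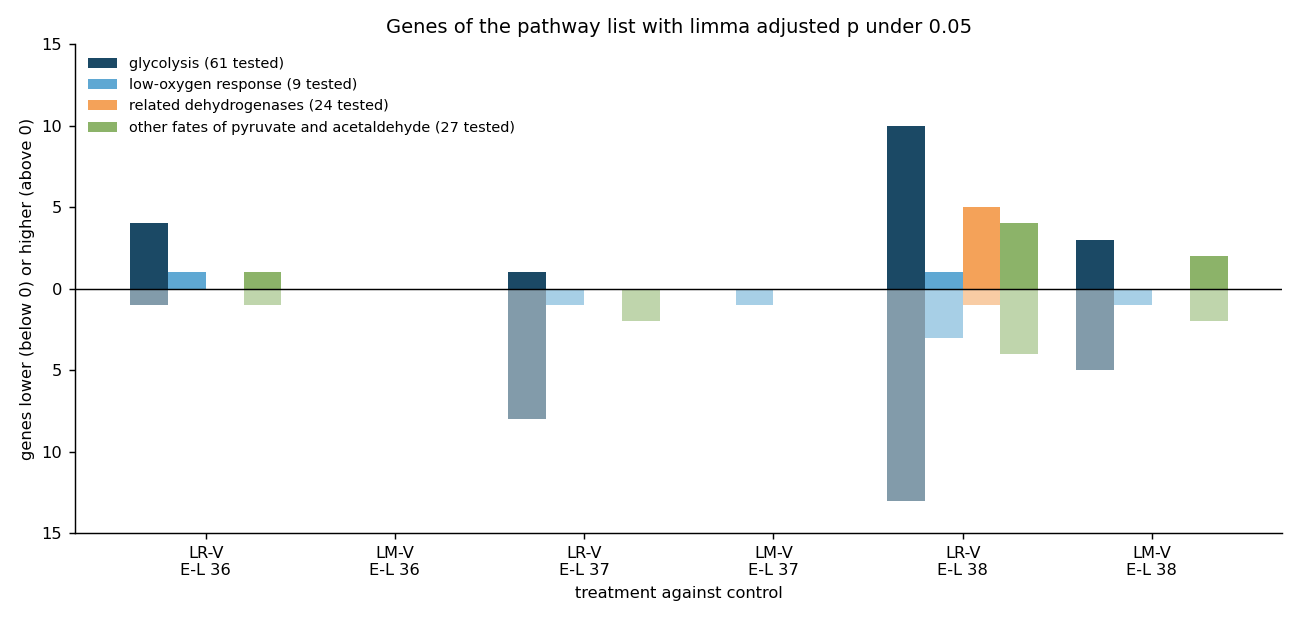
Number of genes of the pathway list with limma adjusted p under 0.05 (vertical axis, higher than C upward, lower than C downward in paler colour) in LR-V and LM-V at E-L 36, 37 and 38, by sub-list. The largest bars are those of LR-V at E-L 38, with 10 glycolysis genes higher and 13 lower.

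Between the treatments, 18 list genes were called at E-L 38, 7 higher and 11 lower in LR-V than in LM-V (14.9% against 7.45% of all tested genes). In a fit of only the groups compared 0 were called by limma, with 42 at an unadjusted p under 0.05, so each of these calls rests on the spread shared over all 27 libraries. The 6-phosphofructokinase gene VIT_200s0780g00010 was 45.6 ± 5.74 FPKM in LR-V against 69.5 ± 1.53 FPKM in LM-V (limma adjusted p = 0.00121, and 0.0732 in the fit of these groups alone), and VIT_218s0001g05040, a phosphoglycerate mutase by orthology whose closest protein is a pollen-specific one, was 8.04 ± 1.29 against 2.77 ± 0.33 FPKM (limma adjusted p = 0.00161, and 0.0617 in that fit). The count was 5 without LR-V replicate C and 9 without LM-V replicate A. At E-L 36 and E-L 37 none was called by limma, with 14 and 15 genes at an unadjusted p under 0.05, and at E-L 36 the count was 1 without LR-V replicate C.

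In the control berries 56 list genes were called from E-L 36 to E-L 37, 44 higher and 12 lower (46.3% against 37.5%). The split was 19 higher and 30 lower after scaling, so no direction is given for the list. From E-L 37 to E-L 38, 43 were called, 8 higher and 35 lower (35.5% against 28.5%), or 14 higher and 26 lower after scaling. Glycolysis had 3 higher and 22 lower in this step, in which VIT_200s0357g00100, also a phosphoglycerate mutase by orthology with a pollen-specific closest protein, fell from 93.7 ± 7.40 to 25.5 ± 3.02 FPKM (limma adjusted p = 9.85e-08). The aldehyde dehydrogenase gene VIT_214s0066g01550 rose in it from 102 ± 9.89 to 171 ± 3.34 FPKM (limma adjusted p = 3.23e-07).

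The genes whose group means ran most like those of the leading ADH and PDC gene were also named. Over the 9 group means of log2(FPKM + 1), those closest to ADH2 were VIT_210s0042g00950, a succinyl-CoA ligase alpha subunit (Pearson's r of 0.985, mean of 10.3 FPKM), VIT_214s0060g00050, a nucleobase transporter by orthology (0.979), and VIT_219s0090g00030, a protein kinase by orthology (0.979), and 183 tested genes had an r over 0.9. Closest to VIT_210s0003g00990 were VIT_213s0067g01690, with no described protein (0.993), the xylosyltransferase-like VIT_208s0056g01520 (0.992) and the pectinesterase VIT_216s0022g00960, a cell wall enzyme (0.991, mean of 5977 FPKM), and 1069 tested genes had an r over 0.9. These are descriptions over 9 points from the same libraries.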

How the data were processed

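Total RNA of deseeded Cabernet Sauvignon berries was sequenced as 50 bp single reads. The authors aligned them with Bowtie (Bowtie2 2.2.5 in the submitters' processing notes), with no more than 2 mismatches a read, to version V2 of the grapevine genome, and gene levels were deposited as 1 table of FPKM per gene with 2 decimals. The deposited FPKM hold no read counts, and overlapping or near-identical genes cannot be separated. The authors also gave KEGG, GO and closest-protein annotation, used here. RefSeq names were matched for 6 of the 10 genes through KEGG entries, and neighbours were taken from assembly ASM3070453v1, which is not the build of the files.

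FPKM were used as log2(FPKM + 1). Genes with FPKM of 1 or more in at least 3 libraries (19761) entered 1 limma model of 9 group means (limma 3.58.1 with trend and robust empirical Bayes, statmod 1.5.0, R 4.3.3), tested on simulated data first, with two-sided p-values adjusted by Benjamini-Hochberg over all of them and a threshold of 0.05. Tables were made with Python 3.11.15, pandas 2.3.3 and numpy 2.4.6. The study's test, NOISeq, was rebuilt from its description as an alternative (fold change of 2, probability of 0.8). Other alternatives were a fit of only the groups compared, median-of-ratios scaling, a pseudocount of 0.1, no filter, the replicate letter as a block, the seed level as a covariate and each library left out. The 10 genes, the pathway list and the marker genes were chosen with earlier results of these data known. Named were all 10 genes, up to 3 called list genes per comparison with the smallest adjusted p, and the 3 genes most like the leading ADH and PDC gene. No protein, promoter or probe sequences were used here.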

Additional observations from a re-analysis of the deposited data

Results flagged for a closer look

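Some genes of the pathway list differed from C by unequal amounts at E-L 36 and E-L 38, by a limma contrast of the treatment difference at E-L 38 minus that at E-L 36, adjusted over all tested genes, n = 3. It was read only for the named genes of the list, which were picked for a small adjusted p in comparisons of these same libraries. Only contrasts with an adjusted p under 0.05 are given. Their p-values are therefore not independent of the choice of genes and serve as a description. For the truncated hemoglobin gene VIT_204s0008g04210 this contrast was -1.90 for LR-V (adjusted p = 7.2e-07) and, for LM-V, -1.38 (adjusted p = 0.000131). For the 6-phosphofructokinase gene VIT_204s0008g00520 it was -1.13 for LR-V (adjusted p = 2.67e-05) and, for LM-V, -0.75 (adjusted p = 0.00412). For the aldehyde dehydrogenase gene VIT_204s0023g02810 it was -1.39 for LR-V (adjusted p = 6.74e-05) and, for LM-V, -0.98 (adjusted p = 0.00532), where FPKM in C was 27.6 to 33.6 at E-L 36 and 70.2 to 76.6 at E-L 38. For the aldolase gene VIT_204s0023g03010 it was 0.85 for LR-V (adjusted p = 0.00761) and, for LM-V, 0.80 (adjusted p = 0.0238). For the pyruvate dehydrogenase gene VIT_215s0048g02580 it was 0.37 for LR-V (adjusted p = 0.04) and, for LM-V, 0.61 (adjusted p = 0.00272). For the sucrose synthase gene VIT_207s0005g00750 it was -0.66 in LR-V (adjusted p = 0.0012). The LR-V and LM-V contrasts share their C libraries.

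Among the ADH and PDC genes, every library of a treatment was on one side of C at one stage and on the other side at another, and these differences between stages were not tested. The PDC gene VIT_208s0217g00100 was above C at E-L 36 and below it at E-L 38, with the log2 differences 0.94 apart in LR-V and 0.72 apart in LM-V. VIT_219s0014g00320, with the weak ADH match, was below C at E-L 37 and above it at E-L 38, with the log2 differences 0.49 apart in LR-V and 0.48 apart in LM-V.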

How the results depend on the processing

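Of 1320 differences of the 10 genes recomputed under the alternatives, 1303 moved by less than 1 SD between replicates, 17 moved by more and 0 of the called ones changed sign. Those that moved came with median-of-ratios scaling, the seed covariate or the pseudocount. Leaving out 1 of 3 libraries cannot move a difference by 1 SD, so that none of these moved says nothing about single libraries. The fit of only the groups compared, the fit without a filter and the replicate block leave a difference of means unchanged. The 1303 is therefore no measure of robustness to these settings. For the pathway list, a fit of only the groups compared gave 4, 2 and 24 called genes for LR-V against C at E-L 36, 37 and 38 in place of 8, 12 and 41, and 0 in place of 18 for LR-V against LM-V at E-L 38, where limma gave 42 genes an unadjusted p under 0.05. The seed covariate gave 5 (LR-V, E-L 36) and 2 (LM-V, E-L 37). Scaling, a pseudocount of 0.1, no filter and the study's rule each gave 0 in place of 1 for LM-V at E-L 37. The study's rule, which asks for a fold change of 2, gave 1, 2 and 11 in the LR-V comparisons with C, 2 in that of LM-V at E-L 38, 1, 1 and 4 for LR-V against LM-V, and 8 and 4 for the control steps in place of 56 and 43. No filter gave 1 for LR-V against LM-V at E-L 36. With a single library left out the counts ranged over 2 to 8, 4 to 13 and 25 to 45 for LR-V against C at the 3 stages, 0 to 1, 0 to 2 and 11 to 13 for LM-V, 0 to 1, 0 to 0 and 5 to 27 for LR-V against LM-V, and 47 to 52 and 32 to 39 for the control steps.

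The replicate letters were not taken as pairs, since in no comparison was every correlation of same-letter deviations over 0.1. Single correlations ran from -0.464 to 0.278, and with 3 libraries per group this rule cannot exclude pairing. With the letter as a replicate block 16 in place of 18 list genes were called for LR-V against LM-V at E-L 38, and the other counts were equal to those without it. An alternative chosen after seeing the list, without the genes put on it by annotation words, gave 36 in place of 41 for LR-V at E-L 38. The number of reads is not given in the table, so no counting interval could be had for low genes.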
